A study of Mus musculus with 2 samples.

Results

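Oxidative phosphorylation is carried out by complexes I to V of the inner mitochondrial membrane, and its genes were described here across the cells of the mouse lateral hypothalamic area. Members were all symbols of the gene list that begin with Nduf, Uqcr, Cox and a digit, Atp5 or mt-, together with Sdha, Sdhb, Sdhc and Sdhd, with at least 50 UMIs over both matrices. Of 28692 genes, 114 symbols matched and 111 were members, 98 of them encoded in the nucleus and 13 in the mitochondrial genome. The 3 matching symbols below the limit were Cox7b2 with 35 UMIs, Cox8b with 7 and Cox8c with 0, and the members nearest to it were Cox15 with 230 UMIs and Cox4i2 and Cox16 with 271 each. By role the nuclear members were 7 core subunits, 29 accessory subunits and 7 assembly factors of complex I, 4 subunits of complex II, 8 of complex III, 17 subunits and 9 assembly factors of complex IV, 15 of complex V, and Atp5s and Atp5sl, which carry the name of ATP synthase but are not counted among its subunits.

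As background, complexes I and II pass electrons from NADH and succinate to ubiquinone, complex III passes them on to cytochrome c and complex IV to oxygen, while complexes I, III and IV pump protons and complex V, the ATP synthase, uses the proton gradient to make ATP. Complex II is encoded wholly in the nucleus, whereas the other complexes also need subunits made from the mitochondrial genome, whose messages are cut from long transcripts of both strands. Several complex IV and complex V subunits exist as alternative isoforms from separate genes, some of them known from heart and muscle, testis, lung or cells short of oxygen. Neurons are known for a high demand for ATP to restore their ion gradients.

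The tissue was dissected by hand from brain slices of C57BL/6 mice at postnatal day 30 and dissociated, and droplet 3′ libraries were made with 10x Genomics Chromium chemistry, whose unique molecular identifiers (UMIs) allow transcripts to be counted. The 2 libraries were pools of animals, 1 labelled female from 2 mice and 1 labelled male from 3 mice, with no treatment, and all 5 mice were littermates. The libraries held between 3439 and 3793 barcodes and between 23151801 and 27437142 UMIs, with a median of 5718 to 6289 UMIs per barcode. After filters 3181 and 3515 cells were kept. Xist went against the labels: the library labelled male held 20641 Xist UMIs and 0 UMIs of 4 Y-linked genes, and the library labelled female 30 Xist UMIs and 7618 Y-linked UMIs. The libraries are therefore called by their labels only, and the library labelled male comes first in every pair of values below. The libraries shared 18 barcodes.

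Inhibitory neurons were neuron-like cells with a UMI of Slc32a1, the vesicular GABA transporter, and none of Slc17a6, the vesicular glutamate transporter VGLUT2, and excitatory neurons the reverse. Neurons in which Hcrt, the orexin gene, or Pmch, the gene of melanin-concentrating hormone, made at least 0.3% of UMIs were called Hcrt-high or Pmch-high, and other excitatory neurons lay below that for both. The Hcrt-high and Pmch-high gates took no account of Slc32a1 or Slc17a6, so their cells need not be excitatory by the gate above. There were 984 and 1108 inhibitory, 659 and 747 excitatory, 80 and 84 Hcrt-high, 86 and 61 Pmch-high and 550 and 650 other excitatory neurons. The non-neuronal classes came from clusters made without any member gene, and all but the mural-like class (9 and 35 cells) had enough cells in each library for a test. They held 609 and 593 mature oligodendrocyte-like, 74 and 105 newly formed oligodendrocyte-like, 77 and 87 oligodendrocyte precursor-like, 119 and 184 astrocyte-like, 70 and 38 microglia-like, 148 and 149 endothelial-like and 22 and 33 fibroblast-like cells, against 1981 and 2213 neuron-like cells. In 3 clusters with 150 cells (2.24%) markers did not give a name, and they entered no comparison.

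Some classes carried RNA typical of other cells, and its part in the member levels was not tested. The 12 neuron markers all had UMIs in the microglia-like cells of the library labelled female, where they summed to 10410 CPM (UMIs per 1000000 UMIs of the class and library), against 1915 CPM in the library labelled male and 24220 and 26300 CPM in neuron-like cells. They summed to 7166 and 18960 CPM in mural-like and to 4435 and 8748 CPM in fibroblast-like cells, and to at most 4545 CPM in the other non-neuronal classes. Endothelial-like cells carried 5 erythrocyte markers at 53770 and 66830 CPM, against 24.9 and 57.9 CPM in neuron-like cells, a list led by haemoglobin genes. The 12 markers of mature oligodendrocytes took 112400 and 110500 CPM of those cells, against 1392 and 1658 CPM in neuron-like cells.

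Summed over members, mitochondrial transcripts gave more UMIs than nuclear ones in every class, and the 2 genomes did not move together. The 13 mt- members took 13.2% and 14.2% of UMIs in astrocyte-like cells, 10.3% and 10.8% in mature oligodendrocyte-like cells and 9.67% and 10.4% in oligodendrocyte precursor-like cells, against 8.56% and 9.09% in neuron-like cells. They took 7.15% and 7.42% in endothelial-like and 7.92% and 8.14% in newly formed oligodendrocyte-like cells, below neuron-like cells in both libraries. The groups did not overlap in any of these 5 comparisons, while microglia-like cells (7.31% and 8.61%) overlapped with neuron-like cells. Under the alternatives 2 of the 5 came to overlap: with finer clusters endothelial-like cells had 8.26% and 8.96%, against 8.57% and 9.13% in neuron-like cells, and with at most 10% mitochondrial UMIs newly formed oligodendrocyte-like cells had 7.34% and 7.55%, against 7.10% and 7.46%, above neuron-like cells in each library. Fibroblast-like cells had 9.09% and 9.38%, just above neuron-like cells in each library.

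The 98 nuclear members ran otherwise. They took 2.06% and 1.86% of UMIs in mature oligodendrocyte-like cells and 2.49% and 2.43% in astrocyte-like cells, against 3.42% and 3.05% in neuron-like cells. Endothelial-like cells had 2.44% and 2.00%, newly formed oligodendrocyte-like cells 2.41% and 2.06%, oligodendrocyte precursor-like cells 2.82% and 2.38% and microglia-like cells 2.36% and 2.50%. All 6 of these classes lay below neuron-like cells without overlap, whereas fibroblast-like cells (3.47% and 3.32%) and the untested mural-like cells overlapped with them. Per cell, astrocyte-like cells held 326 and 396 mt- and 61.4 and 67.9 nuclear member UMIs, against 717 and 806 mt- and 287 and 271 nuclear member UMIs in neuron-like cells. The higher mitochondrial share of astrocyte-like cells was thus a share of a smaller total, their median UMIs per cell being 0.295 and 0.315 of those of neuron-like cells. These summed levels are given as descriptions, and no test was run on them.

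The ratio of mt- to nuclear member UMIs needs no scaling to the library total and separated the classes most. It was 5.31 and 5.82 in astrocyte-like and 4.99 and 5.79 in mature oligodendrocyte-like cells, against 2.50 and 2.97 in neuron-like cells. Next came oligodendrocyte precursor-like cells with 3.43 and 4.38, newly formed oligodendrocyte-like cells with 3.28 and 3.96 and microglia-like cells with 3.10 and 3.44, also above neuron-like cells without overlap, though microglia-like cells overlapped with them with no mitochondrial limit, when thinned and with finer clusters. Neighbours in this order overlapped, and only the 2 highest classes stood clear of the rest. Endothelial-like cells had 2.93 and 3.72, mural-like cells 2.84 and 3.16 and fibroblast-like cells 2.62 and 2.83, and these ranges overlapped with neuron-like cells. In mural-like cells the counting intervals of the mt- share were 9.28 to 9.99% and 9.42 to 9.70% (exact binomial, 95%), and of the nuclear share 3.18 to 3.61% and 2.94 to 3.10%, which cover counting error alone.

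**Figure D1:**
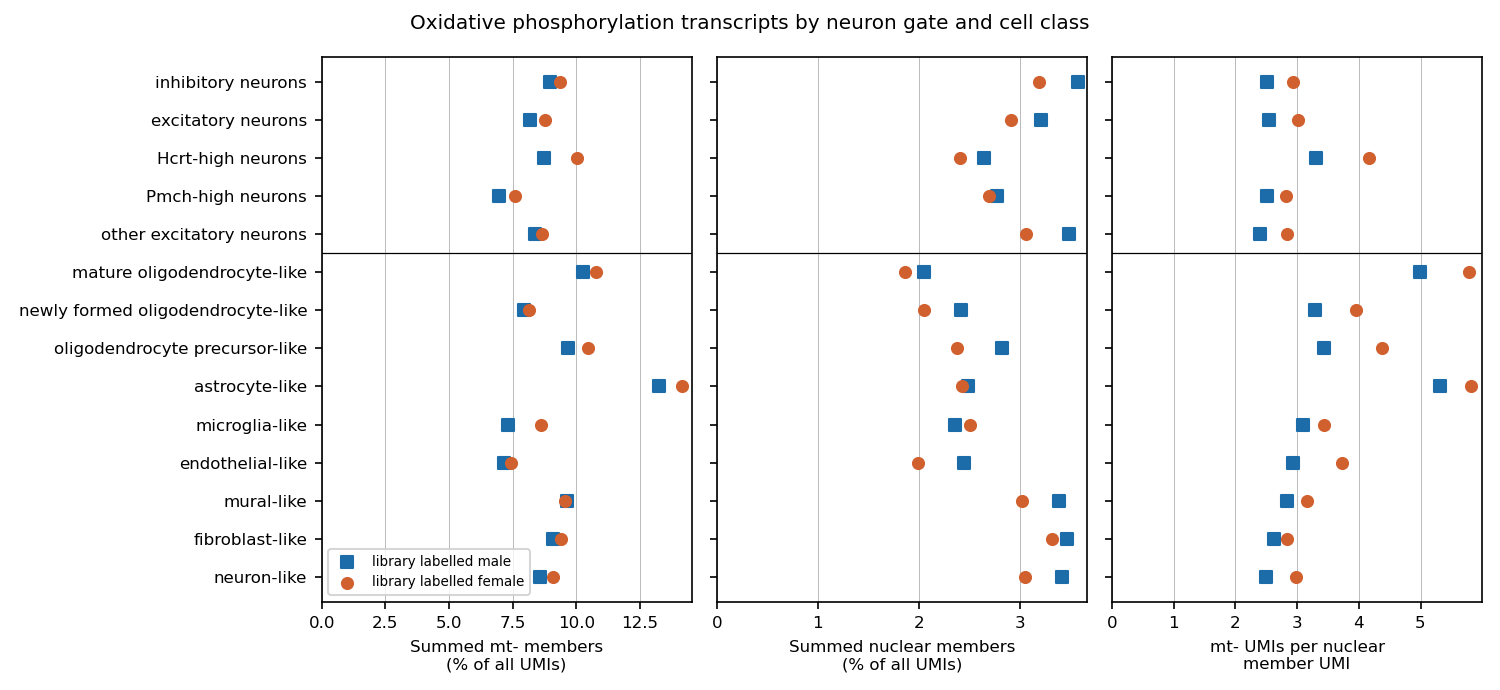
Share of all UMIs from the 13 mt- members and from the 98 nuclear members, in percent, and their ratio, for each neuron gate and class, with 1 point per library. Astrocyte-like and mature oligodendrocyte-like cells lie highest in the ratio (4.99 to 5.82), against 2.50 and 2.97 in neuron-like cells.

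The filter on mitochondrial share bears on these values, since the mt- members are themselves what it counts. Cells above 20% were left out, which were 149 and 135 barcodes. With no such limit astrocyte-like cells numbered 212 and 252 and had an mt- share of 21.01% and 17.5%, against 8.76% and 9.29% in neuron-like cells. With a limit of 10%, 22 and 18 astrocyte-like cells were left, with 8.42% and 8.37%, against 7.10% and 7.46% in neuron-like cells. The height of the astrocyte-like share was therefore set in part by the limit, but its place above neuron-like cells held at each. The mt- to nuclear ratio of astrocyte-like cells was 8.47 and 7.17 with no limit and 3.77 and 4.42 with the limit of 10%. Thinned to 3000 UMIs a cell, which kept 12 and 48 astrocyte-like cells, the ratio was 6.37 and 5.76 (unthinned 5.31 and 5.82), against 2.56 and 2.99 in neuron-like cells, so it was as high among the deeper cells of this class.

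**Figure D2:**
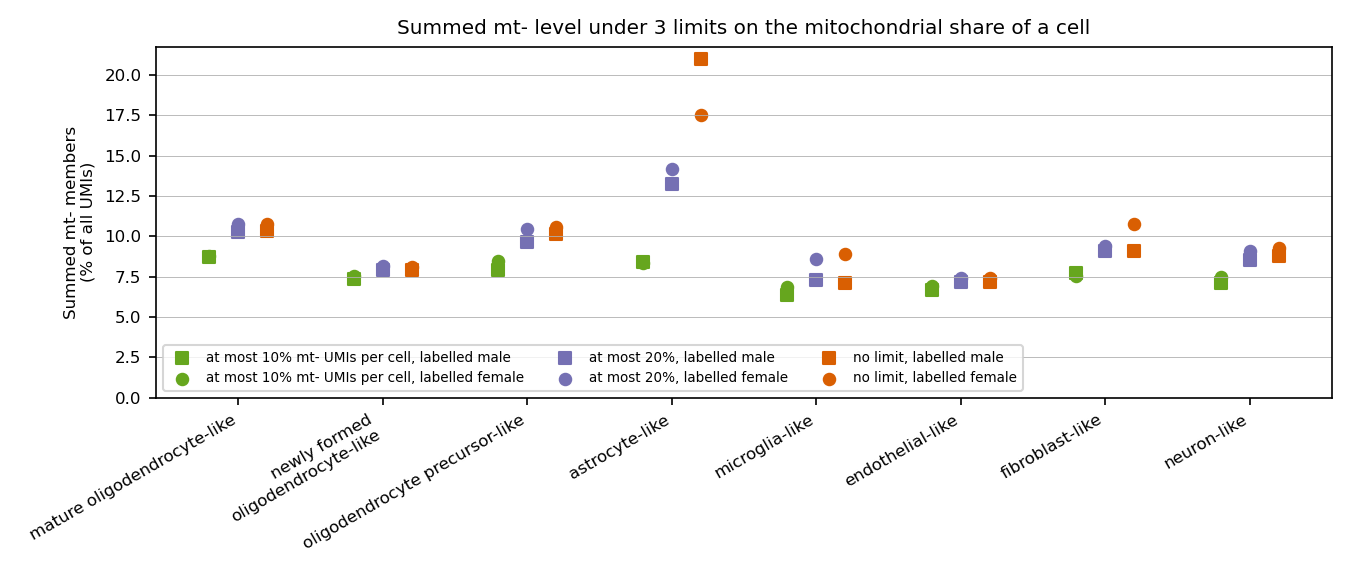
Share of UMIs from the mt- members, in percent, by class under 3 limits on the mitochondrial share of a cell (at most 10%, at most 20% and no limit), with 1 point per library. The astrocyte-like share moves most, being 17.5% and 21.01% with no limit and 8.37% and 8.42% at the limit of 10%.

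The mt- members encode 7 subunits of complex I (mt-Nd1 to mt-Nd6 and mt-Nd4l), cytochrome b of complex III (mt-Cytb), the 3 catalytic-core subunits of complex IV (mt-Co1 to mt-Co3) and 2 subunits of complex V (mt-Atp6 and mt-Atp8). In GENCODE M21, 12 lie on the plus strand of the mitochondrial genome and mt-Nd6 on the minus strand. Reading frames overlap by 43 bases between mt-Atp8 and mt-Atp6, 7 between mt-Nd4l and mt-Nd4 and 1 between mt-Atp6 and mt-Co3. Reads within the shared bases of these pairs cannot be split with certainty. mt-Nd5 overlaps mt-Nd6 on the other strand by 14 bases, where a split depends on whether strand was counted, which is not stated. For tests the UMIs of a class were summed per library and scaled by edgeR's TMM method, which assumes that most genes do not change. The scaled sums were fitted with the library as a block. Genes with a p under 0.05 after Benjamini-Hochberg adjustment over all genes tested were called. In astrocyte-like cells 12 of 13 mt- members were called higher than in neuron-like cells, beside 23.5% of the 10584 genes tested that were called higher in that comparison. mt-Co1, the catalytic subunit of complex IV, had 20742 and 20846 CPM in astrocyte-like cells, against 12114 and 12234 CPM in neuron-like cells (log2 fold change 0.95 ± 0.19 (SE), edgeR adjusted p = 3e-05). mt-Nd4 had 11076 and 11502 CPM, against 6529.8 and 6798 CPM in neuron-like cells (0.94 ± 0.19, edgeR adjusted p = 4.4e-05). mt-Nd1 alone was not called, at 13211 and 13845 CPM, against 11469.6 and 11529.7 CPM in neuron-like cells (0.41 ± 0.19, edgeR adjusted p = 0.064). Log2 fold changes of the mt- members ran from 0.41 for mt-Nd1 to 1.32 for mt-Nd4l, leaving aside mt-Nd6 with 7 and 11 UMIs. With at most 10% mitochondrial UMIs, a limit that cuts the measured quantity itself and left 22 and 18 astrocyte-like cells, 0 of 12 tested were called, with a median log2 fold change of 0.22 and mt-Nd3 at -0.0036. Among cells thinned to 3000 UMIs 4 of 13 were called higher, beside 34.4% of genes called in either direction.

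In mature oligodendrocyte-like cells all 13 mt- members were called higher after TMM scaling, beside 32.9% of genes called higher. mt-Atp6 had 24747 and 25846 CPM there, against 17616 and 19374 CPM in neuron-like cells (log2 fold change 1.10 ± 0.19 (SE), edgeR adjusted p = 1.1e-06), and mt-Nd3 1473 and 1486 CPM, against 969 and 1003 CPM (1.24 ± 0.19, edgeR adjusted p = 7.8e-08). mt-Nd1 had 9743 and 9783 CPM, against 11469.6 and 11529.7 CPM in neuron-like cells, and mt-Nd5 604 and 585 CPM, against 679 and 676 CPM: called higher after TMM (0.41 and 0.46 on the log2 scale), they turned to -0.24 and -0.19 without it. TMM scaling put the median of all genes at -0.06 in this comparison and plain library totals put it at -0.71. Without TMM 8 mt- members were called higher and 1 lower, beside 76.2% of genes called in either direction.

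Shares of the mitochondrial transcripts themselves, which no scaling touches, differed between classes. mt-Nd1 made 9.49% and 9.09% of mt- UMIs in mature oligodendrocyte-like cells, 9.28% and 8.43% in newly formed oligodendrocyte-like cells, 9.98% and 9.78% in astrocyte-like cells and 10.2% and 9.52% in endothelial-like cells, against 13.4% and 12.7% in neuron-like cells. mt-Atp6 made 24.1% and 24.0% in mature oligodendrocyte-like cells and 23.9% and 24.5% in endothelial-like cells, against 20.6% and 21.3% in neuron-like cells. mt-Co1 was 16.9% and 16.4% in newly formed oligodendrocyte-like cells, against 14.2% and 13.5% in neuron-like cells. None of these ranges overlapped with the neuron-like ones, whereas the mt-Nd1 share of microglia-like cells did, at 12.7% and 11.7%. In the other classes fewer mt- members passed the test: in newly formed oligodendrocyte-like cells mt-Nd1 was called lower and no other, in fibroblast-like cells mt-Nd6 was called higher on 2 and 6 UMIs, and in oligodendrocyte precursor-like, microglia-like and endothelial-like cells edgeR called 0 of 13. At an unadjusted p of 0.05 these were 0, 1 and 0, and DESeq2's test called 6, 7 and 6 of them higher in the same 3 classes and 1 lower in endothelial-like cells. Over all genes that test called 34.1%, 29.3% and 59.9% in either direction in the 3 classes.

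**Figure D3:**
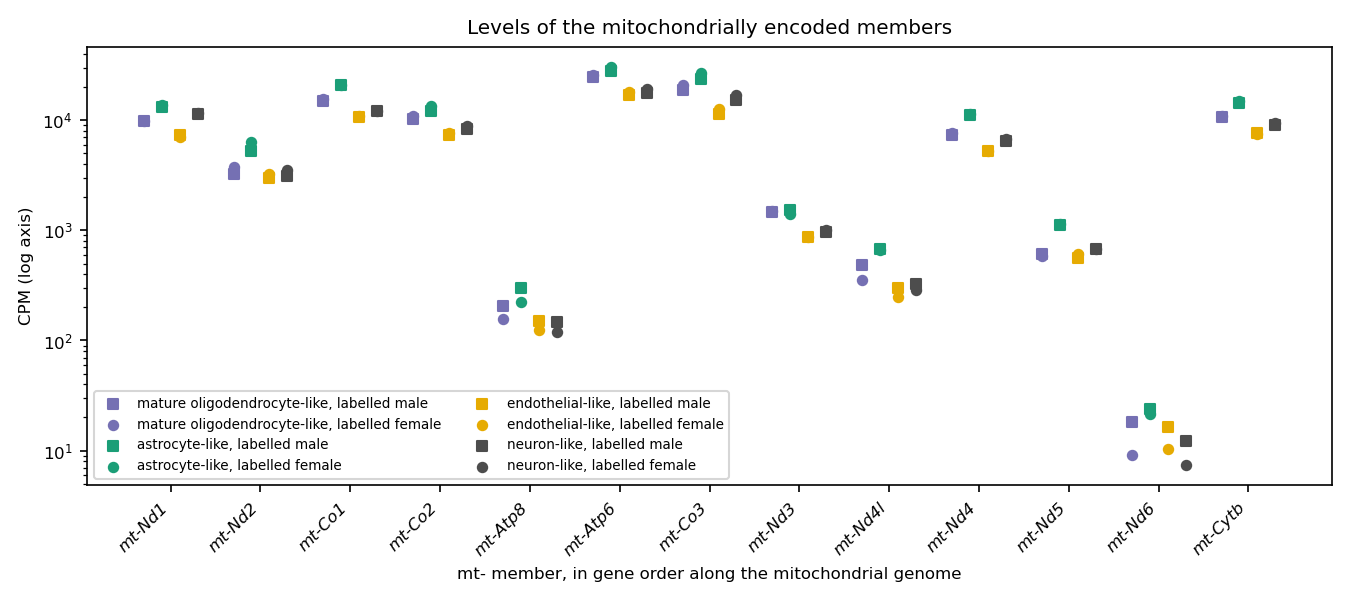
CPM of each mt- member on a log axis, in gene order along the mitochondrial genome, in mature oligodendrocyte-like, astrocyte-like, endothelial-like and neuron-like cells, with 1 point per library. Astrocyte-like values lie above neuron-like ones, while mature oligodendrocyte-like values lie below them for mt-Nd1 and mt-Nd5.

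Between the 2 large neuron gates, nuclear members leaned towards inhibitory neurons. Of 98 nuclear members 45 were called higher and 5 lower in inhibitory than in excitatory neurons, beside 10.6% of 13159 genes called higher and 13% called lower. Their median log2 fold change was 0.11, against 0.01 over all genes tested, so the steps were small. Summed nuclear members took 3.58% and 3.19% of UMIs in inhibitory neurons, against 3.21% and 2.91% in excitatory neurons, and mt- members 8.97% and 9.34%, against 8.17% and 8.75%. The nuclear ranges overlapped, though inhibitory neurons were higher within each library. The ratio of the 2 genomes was 2.51 and 2.93 in inhibitory neurons, against 2.54 and 3.01 in excitatory neurons. Both gates had similar depth, with medians of 7841 and 8234 UMIs, against 8246 and 8274 UMIs. DESeq2's test called 3 of 111 members, beside 4.38% of all genes, and a fit with no replicate block 1, beside 7.11%, so neither count was above its background. With Hcrt-high and Pmch-high neurons left out of both gates 18 nuclear members were called higher and 3 lower. Beside them 14.4% of genes were called in either direction, the nuclear median was 0.04, and 10 mt- members were called higher. The lean of the nuclear members was thus smaller with the Hcrt-high and Pmch-high neurons left out.

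By role, 6 of 7 core subunits of complex I were called higher and 0 lower, as were 10 of 15 members of complex V, 3 of 4 of complex II and 4 of 8 of complex III. Among complex I accessory subunits 12 of 29 were called higher and 2 lower, and among complex IV subunits 7 of 17 and 3. Among complex IV assembly factors these were 2 of 9 and 0, and among complex I assembly factors 0 of 7 in either direction. Over all genes 10.6% were called higher and 13% lower. The counts by role are from the main fit alone. Over all roles DESeq2's test called 3 nuclear members higher and 0 lower, and a fit with no replicate block 1 and 0. Atp5b, the catalytic beta subunit of ATP synthase, had 499 and 461 CPM in inhibitory neurons, against 376 and 369 CPM in excitatory neurons (log2 fold change 0.31 ± 0.04 (SE), edgeR adjusted p = 2.5e-07). Ndufs1, an iron-sulfur core subunit of complex I, had 82.4 and 78.2 CPM, against 62.2 and 61.2 CPM (0.33 ± 0.06, edgeR adjusted p = 0.0004), and Uqcrc1, a core subunit of complex III, 138 and 128 CPM, against 104 and 105 CPM. In each of these 3 both inhibitory values lay above both excitatory ones. Sdha, the flavoprotein of complex II, had 355 and 305 CPM, against 303 and 274 CPM (0.14 ± 0.04, edgeR adjusted p = 0.0079), while Ndufs4, an accessory subunit of complex I, did not pass the test at 113 and 113 CPM, against 99.3 and 106 CPM (0.09 ± 0.05, edgeR adjusted p = 0.28). Cox10 and Cox11, needed for the haem and copper centres of complex IV, were called higher at 0.40 and 0.36, and Atp5sl at 0.45.

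The 5 nuclear members called lower in inhibitory neurons were Cox7a1, Cox4i2, Cox6a1, Ndufv3 and Ndufb11. Cox7a1, the isoform of subunit VIIa known from heart and muscle, had 8.23 and 6.90 CPM in inhibitory neurons, against 15.2 and 9.94 CPM in excitatory neurons (-0.77 ± 0.18, edgeR adjusted p = 0.0019), the excitatory gate including the Pmch-high neurons described below. Cox4i2 had 7 UMIs over both libraries in inhibitory neurons, against 22 in excitatory neurons, a ratio of levels of 0.246 with an exact 95% counting interval of 0.0887 to 0.596. Of these 22 only 8 lay in other excitatory neurons, and Hcrt-high neurons, in or out of the excitatory gate, held 16. For Cox6a1 (-0.10) and Ndufv3 (-0.18) the values of the libraries overlapped. Of the mt- members mt-Nd2, mt-Nd4l, mt-Nd5 and mt-Atp8 were called higher, by 0.10 to 0.19 on the log2 scale, and 0 lower. Beside them 10.6% of genes were called higher and 13% lower. Without TMM 56 nuclear members were called higher and 3 lower, and 12 mt- members higher, beside 26.2% of genes called in either direction.

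In Hcrt-high neurons the 2 genomes parted, mainly through a lower nuclear share. Nuclear members took 2.64% and 2.40% of UMIs there, against 3.49% and 3.06% in other excitatory neurons, while mt- members took 8.71% and 10.0%, against 8.37% and 8.65%. The mt- to nuclear ratio was 3.30 and 4.17, against 2.40 and 2.83 in other excitatory neurons, 1.38 to 1.47 times as high. Hcrt-high neurons were also the deeper cells, with medians of 16381 and 18305 UMIs, against 7695 and 7913 UMIs. Per cell they held 361 and 389 nuclear member UMIs, against 272 and 252 in other excitatory neurons. Their mt- UMIs per cell were 1190 and 1619, against 653 and 713. The lower nuclear share was thus a share of a larger total, with more member UMIs per cell. Thinned to 3000 UMIs a cell the nuclear share stayed at 2.77% and 2.47%, against 3.48% and 3.08%. With at most 10% mitochondrial UMIs the ratio was 2.94 and 3.40, against 1.95 and 2.41. The 12 neuron markers summed to 17810 and 17340 CPM in Hcrt-high neurons, against 25270 and 28370 CPM, and their part in the result was not tested.

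Of 97 nuclear members tested 9 were called higher and 30 lower in Hcrt-high neurons, beside 21.5% of 11664 genes called higher and 19.9% called lower. Without TMM these were 3 and 72, beside 46.3% of genes called in either direction. The median log2 fold change of the nuclear members was -0.21, against -0.01 over all genes, and that of the mt- members 0.19. Without TMM these medians were -0.45, -0.26 and -0.05. Members called lower included 10 of 29 accessory and 2 of 7 core subunits of complex I, 7 of 16 complex IV subunits and 6 of 15 members of complex V. Ndufs7 and Ndufs8, iron-sulfur core subunits of complex I, had 118 and 130.4 CPM and 48.5 and 50.8 CPM in Hcrt-high neurons, against 246 and 238 CPM and 115 and 97.1 CPM in other excitatory neurons. Their log2 fold changes were -0.71 ± 0.11, edgeR adjusted p = 6.3e-09, and -0.83 ± 0.14, edgeR adjusted p = 7.4e-08, with no overlap. Atp5j, coupling factor 6 of ATP synthase, had 419 and 410.2 CPM, against 842 and 748 CPM (-0.69 ± 0.11, edgeR adjusted p = 1.3e-08), and Cox8a, a small complex IV subunit, 976 and 1127 CPM, against 1694 and 1698 CPM (-0.45 ± 0.12, edgeR adjusted p = 0.0011). Atp5sl (-0.96) and the complex I assembly factor Ndufaf2 (-0.66) completed the 5 lowest called.

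Against this, Atp5e, the epsilon subunit of ATP synthase, was called higher at 651 and 576 CPM in Hcrt-high neurons, against 527 and 461 CPM in other excitatory neurons (0.56 ± 0.11, edgeR adjusted p = 1.8e-06). Sdha was called higher too, at 361 and 325 CPM, against 303 and 275 CPM (0.49 ± 0.10, edgeR adjusted p = 1.3e-05), the only complex II member called of 4. Cox19, Ndufa1 and Cox4i1 were called higher at 0.51, 0.46 and 0.44, although their CPM overlapped between the gates. Of the mt- members mt-Co1 was called higher at 14951 and 15633 CPM, against 11675 and 11346 CPM (0.66 ± 0.17, edgeR adjusted p = 0.00071), and mt-Co2 at 8829 and 10118 CPM, against 8085 and 8348 CPM (0.45 ± 0.16, edgeR adjusted p = 0.016). These were the only 2 of 13 mt- members called, beside 21.5% of genes called higher. Without TMM 1 mt- member was called higher and 1 lower. Low-count isoforms moved as well: over both libraries Cox6b2 had 1 UMI in Hcrt-high neurons, against 85 in other excitatory neurons (ratio of levels 0.0463, exact 95% interval 0.00116 to 0.265), and Cox6a2 2 UMIs, against 145 (0.0543, 0.00652 to 0.200). Cox4i2 had 16 UMIs, against 8 (ratio 7.88, 3.18 to 21.3). All 3 encode alternative complex IV isoforms, and their counts are low.

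Pmch-high neurons had an mt- to nuclear ratio of 2.50 and 2.82, against 2.40 and 2.83 in other excitatory neurons, and both genomes took smaller shares. Their mt- members took 6.94% and 7.59% of UMIs, against 8.37% and 8.65% in other excitatory neurons, and their nuclear members 2.77% and 2.69%, against 3.49% and 3.06%. These shares did not overlap, and Pmch-high neurons were deeper, with medians of 14166.5 and 12947 UMIs, against 7695 and 7913 UMIs. Per cell they held more member UMIs, 463 and 469 nuclear, against 272 and 252 in other excitatory neurons. Their mt- UMIs per cell were 1160 and 1322, against 653 and 713. Of 96 nuclear members tested 17 were called higher and 24 lower, beside 19.4% of 11659 genes called higher and 16.8% called lower, which is near the background for the higher ones. Without TMM 6 were called higher and 55 lower, beside 43.8% of genes called in either direction. TMM put the median of all genes at -0.02 and plain totals at -0.28. A fit with no replicate block called 23 members, beside 31.2% of genes, and DESeq2's test 17, beside 11.6%, against 44 here. With at most 10% mitochondrial UMIs the ratio was 2.35 and 2.68, against 1.95 and 2.41 in other excitatory neurons, higher in each library. The mt- shares then overlapped at 6.46% and 7.25%, against 6.90% and 7.25%. Under this limit 6 mt- members were called higher and 0 lower, beside 35.7% of genes called in either direction. For the mt- members the direction of several turned with the scaling: 1 was called higher and 2 lower with TMM, 0 and 12 without. mt-Nd1 had 10298 and 10751 CPM, against 11456 and 11145 CPM, called higher at 0.16 with TMM and turning to -0.10 without.

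The largest difference was in Cox7a1, which had 54.3 and 39.6 CPM in Pmch-high neurons (78 and 42 UMIs), against 9.08 and 8.03 CPM in other excitatory neurons (log2 fold change 2.71 ± 0.22 (SE), edgeR adjusted p = 6e-11). Cox7a1 made 9.02% and 6.09% of the Cox7a1 and Cox7a2 UMIs in Pmch-high neurons, against 1.22% and 1.17% in other excitatory neurons. Cox6a1, a complex IV subunit, had 897 and 981 CPM, against 705 and 676 CPM (0.70 ± 0.06, edgeR adjusted p = 2.5e-10), and Cox19, a complex IV assembly factor, 75.2 and 75.3 CPM, against 42.8 and 55.1 CPM (0.90 ± 0.14, edgeR adjusted p = 1.1e-05). The complex I accessory subunits Ndufv3 and Ndufb11 were called higher at 0.50 and 0.49, and Ndufs4 at 0.41. Complex IV subunits were thus called in both directions, 6 of 15 higher and 4 lower, beside 19.4% and 16.8% of genes. Lower were Cox11 at 23.0 and 19.8 CPM, against 52.2 and 46.1 CPM (-0.93 ± 0.20, edgeR adjusted p = 0.00046), and the complex I accessory subunits Ndufb9 at 138 and 152 CPM, against 288 and 267 CPM (-0.68 ± 0.10, edgeR adjusted p = 4e-06), Ndufab1 (-0.51) and Ndufb10 (-0.48). Of complex V 7 of 15 were called lower and 1, Atp5k, higher. Among the lower was Atp5g3, a gene of its membrane ring, at 319 and 262 CPM, against 524 and 411 CPM. Sdha was called lower at 210.1 and 192 CPM, against 303 and 275 CPM (-0.26 ± 0.09, edgeR adjusted p = 0.031), opposite in sign to Hcrt-high neurons; both comparisons share the other excitatory neurons, and the difference between them was not tested.

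Across the 14 neuron clusters, made without the members, the mt- to nuclear ratio was lowest in the library labelled male in a cluster led by Ebf3 (1.87 and 2.64) and in the library labelled female in one led by Synpr (2.00 and 2.51), and the cluster led by Hcrt had 3.31 and 4.13. A cluster led by Hdc, which makes histamine, had 2.84 and 5.10 but only 4 and 6 cells. Clusters led by Tac2 (3.04 and 3.15), Sst (3.11 and 3.41), Nts (3.13 and 3.50) and Adcyap1 (3.26 and 3.42) lay towards the upper end, and those led by Slc32a1 (2.07 and 2.66) and Meis2 (2.09 and 2.74) towards the lower. The cluster led by Pmch had 2.49 and 2.80 and lay in the middle. Within a cluster the 2 libraries often differed more than neighbouring clusters did, so no order among neighbours could be read.

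Among the non-neuronal classes, nuclear members were called lower than in neuron-like cells more often than higher in 6 of 7 tested, the exception being fibroblast-like cells, and with the mt- genes left out of the totals this held in 3 of 7, the newly formed oligodendrocyte-like, precursor-like and endothelial-like cells. Mature oligodendrocyte-like cells had 12 of 91 called higher and 31 lower, beside 32.9% of genes called higher and 35.9% lower, so the share called was no greater than over all genes. The split followed the scaling. Without TMM it was 3 and 77, beside 76.2% of genes called in either direction, and with DESeq2's size factors 14 and 25, beside 68.4%. With the mt- genes left out of the totals it was 23 and 16, beside 69.6%. Members that were lower under each of these were the assembly factors Cox11, at 14.0 and 13.9 CPM, against 49.5 and 50.4 CPM in neuron-like cells (log2 fold change -1.19 ± 0.19 (SE), edgeR adjusted p = 3.5e-07), and Ndufaf5, at 12.9 and 14.3 CPM, against 47.3 and 43.7 CPM (-1.09 ± 0.21, edgeR adjusted p = 9.7e-06). Ndufa4, now counted with complex IV, had 318 and 269 CPM, against 1043 and 808 CPM (-0.999 ± 0.19, edgeR adjusted p = 1.1e-05), Sdha 110.4 and 105 CPM, against 322 and 288 CPM (-0.85 ± 0.17, edgeR adjusted p = 2.2e-05), and Ndufa1 110.0 and 87.0 CPM, against 323 and 250.1 CPM. In all 5 of these both values lay below both neuron-like ones. Higher in CPM were Ndufaf2 at 72.8 and 76.2 CPM, against 61.5 and 59.9 CPM (0.95 ± 0.13, edgeR adjusted p = 7.5e-09), and Atp5g2. Cox6a1 (0.62) and Ndufs8 (0.33) were called higher with TMM although their CPM was lower than in neuron-like cells.

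Along the oligodendrocyte lineage, precursor-like cells had 2 of 91 nuclear members called higher and 34 lower, beside 16.5% and 20.4% of genes, and newly formed oligodendrocyte-like cells 5 and 44, beside 25.2% and 28.3%. In this fit the share called lower was thus above the background in both. The median nuclear log2 fold change was -0.45 in precursor-like and -0.47 in newly formed oligodendrocyte-like cells, against -0.15 and -0.12 over all genes. With the mt- genes left out of the totals precursor-like cells had 5 called higher and 19 lower, beside 35.7% of genes called in either direction. Newly formed oligodendrocyte-like cells then had 10 and 26, beside 53.2%. In both, members were then called less often than genes at large. Without TMM newly formed oligodendrocyte-like cells had 3 and 57, beside 55.2%. In precursor-like cells Ndufa11, a complex I accessory subunit, had 157 and 170.4 CPM, against 372 and 311 CPM in neuron-like cells (-1.20 ± 0.24, edgeR adjusted p = 6e-05), and Cox20, a complex IV assembly factor, was called higher at 157 and 134 CPM, against 76.3 and 72.9 CPM (0.80 ± 0.23, edgeR adjusted p = 0.0048). Without TMM 4 were called higher and 20 lower there, beside 35.1% of genes called in either direction. In newly formed oligodendrocyte-like cells 17 of 29 accessory complex I subunits, 5 of 8 of complex III and 7 of 15 of complex V were called lower. Sdha had 92.5 and 114 CPM, against 322 and 288 CPM (-1.35 ± 0.21, edgeR adjusted p = 3.9e-07), Uqcrc2, a core subunit of complex III, 37.6 and 47.1 CPM, against 126 and 119 CPM (-1.31 ± 0.26, edgeR adjusted p = 2.6e-05), and Atp5a1, the alpha subunit of ATP synthase, 156 and 154 CPM, against 432 and 394 CPM (-1.21 ± 0.22, edgeR adjusted p = 4.3e-06). These are core parts of complexes II, III and V, and for each both values lay well below both neuron-like ones. Cox19 was called higher there at 98.2 and 97.5 CPM, against 50.9 and 55.8 CPM (1.05 ± 0.19, edgeR adjusted p = 6.2e-06).

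Astrocyte-like cells, with the highest mt- share, had 3 of 91 nuclear members called higher and 16 lower, beside 23.5% and 26.2% of genes. Without TMM these were 2 and 38, beside 52.7% of genes called in either direction. With mt- genes left out of the totals they were 6 and 6, beside 48.1%. The nuclear genes were therefore called less often than genes at large, while 12 of 13 mt- members were called higher. Cox7a2l, known as a factor that joins complexes III and IV, had 256 and 261 CPM, against 556 and 539 CPM in neuron-like cells (log2 fold change -0.90 ± 0.21 (SE), edgeR adjusted p = 0.00032), and Atp5g1 416 and 313 CPM, against 713 and 674 CPM (-0.77 ± 0.19, edgeR adjusted p = 0.0007). Sdha was lower at 177 and 154 CPM, against 322 and 288 CPM (-0.71 ± 0.20, edgeR adjusted p = 0.0028), but with no limit on the mitochondrial share its fold change was 0.02. Ndufb9, a complex I accessory subunit, was higher at 372 and 379 CPM, against 276 and 257 CPM (0.68 ± 0.19, edgeR adjusted p = 0.0023), as was Cox20 at 0.63. Ndufaf5 had 5 and 4 UMIs in this class, and its fold is not read.

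Microglia-like cells had 3 of 91 nuclear members called higher and 11 lower, beside 16.8% and 19.5% of genes. Without TMM these were 2 and 33, beside 41% of genes called in either direction. In these cells the nuclear median was -0.50 without TMM, against -0.53 over all genes, and -0.06 with DESeq2's size factors, against -0.10. Cox7a2l was called higher here, at 800.1 and 768 CPM, against 556 and 539 CPM in neuron-like cells (0.77 ± 0.20, edgeR adjusted p = 0.0026), and Sdha lower at 80.0 and 123 CPM, against 322 and 288 CPM (-1.37 ± 0.27, edgeR adjusted p = 5.9e-05). Ndufb2, a complex I accessory subunit, had 133 and 215 CPM, against 426 and 387 CPM (-1.01 ± 0.24, edgeR adjusted p = 0.00081), its value being higher in the library whose microglia-like cells also carried more neuron markers. Fibroblast-like cells, 22 and 33 in number, had 8 of 91 called higher and 4 lower, beside 13.9% and 16.3%. Their median nuclear log2 fold change was 0.03, against -0.28 over all genes. With the mt- genes left out 20 were called higher and 1 lower, beside 26.8% of genes called in either direction. DESeq2's test called 26 and 0, beside 26%. In fibroblast-like cells Ndufv1, a core subunit of complex I, was called higher at 126 and 143 CPM, against 74.2 and 70.1 CPM (0.92 ± 0.29, edgeR adjusted p = 0.014). Endothelial-like cells had 7 of 91 called higher and 32 lower, beside 34.2% and 30.2%. Without TMM these were 4 and 62, beside 66.9% of genes called in either direction. Lower in endothelial-like cells were Cox11 at 14.7 and 8.82 CPM, against 49.5 and 50.4 CPM (-1.77 ± 0.34, edgeR adjusted p = 1.1e-05), and Atp5sl at 16.4 and 13.2 CPM, against 47.3 and 47.4 CPM. Sdha (-0.79) and Ndufa4 (-0.77) were also called lower, and Ndufa7, a complex I accessory subunit, higher at 679 and 551 CPM, against 377 and 369.9 CPM (1.04 ± 0.19, edgeR adjusted p = 3.6e-06).

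Sdha was called lower in mature and newly formed oligodendrocyte-like, precursor-like, astrocyte-like, microglia-like and endothelial-like cells, 6 of the 7 classes tested. In fibroblast-like cells it did not pass the test, at 282 and 227 CPM, against 322 and 288 CPM in neuron-like cells (-0.29 ± 0.24, edgeR adjusted p = 0.39).

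**Figure D4:**
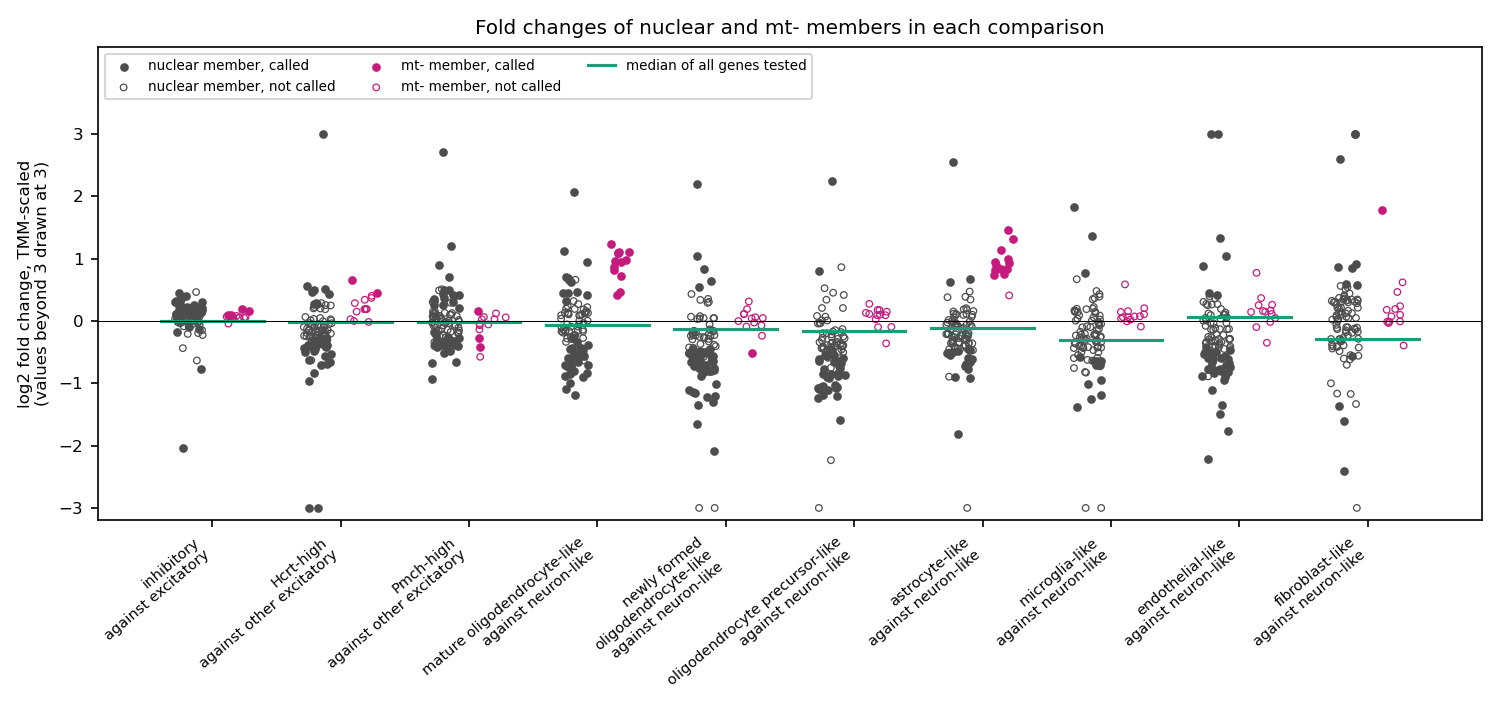
Log2 fold change (TMM scale) of every nuclear member and mt- member in each comparison, with the median of all genes tested as a line; filled points were called, and values beyond 3 are drawn at 3. In astrocyte-like and mature oligodendrocyte-like cells the mt- members (medians 0.91 and 0.96) lie above the nuclear members (medians -0.23 and -0.16).

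The largest differences of any member were in 2 isoforms of complex IV in endothelial-like cells. Ndufa4l2, the paralog of Ndufa4 known to be induced when oxygen is short, lies at chr10:127514967-127517154 on the plus strand (GRCm38), and Cox4i2, the isoform of subunit IV known from lung and from oxygen sensing, at chr2:152754173-152765037 on the plus strand. Ndufa4l2 had 373 and 407 CPM in endothelial-like cells (228 and 277 UMIs), against 1.02 and 1.38 CPM in neuron-like cells (log2 fold change 8.62 ± 0.19 (SE), edgeR adjusted p = 8.1e-37). Cox4i2 had 172 and 103 CPM (105 and 70 UMIs), against 1.14 and 0.917 CPM (7.30 ± 0.35, edgeR adjusted p = 2.5e-22). A UMI of Ndufa4l2 was found in 47.3% and 56.4% of endothelial-like cells, against 0.858% and 1.18% of neuron-like cells, and one of Cox4i2 in 34.5% and 28.2%, against 0.858% and 0.768%, the median depth being 3539.5 and 3769 UMIs in endothelial-like and 7673 and 8065 UMIs in neuron-like cells. Of the pair, Ndufa4l2 made 42.8% (38.5 to 47.1) and 52.5% (48.1 to 56.8) of UMIs in endothelial-like cells, against 0.0981% and 0.170% in neuron-like cells, with exact binomial 95% intervals that cover counting error alone. Cox4i2 made 16.0% and 12.03% of its pair with Cox4i1, against 0.0845% and 0.0768%.

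The mural-like cells, values of which were not tested, had 1151 and 404 CPM of Ndufa4l2 and 297 and 140 CPM of Cox4i2. Mural markers were present in the endothelial-like class too: all 11 had UMIs and summed to 5639 and 4845 CPM, against 8.49 and 16.4 CPM in neuron-like cells, where Kcnj8 was at 0 in the library labelled male. In an alternative chosen after these values were seen, the endothelial-like cells were divided by finer clusters. A part led by the pericyte genes Higd1b, Rgs5 and Pdgfrb (53 and 60 cells) had 718 and 722 CPM of Ndufa4l2 and 322 and 204 CPM of Cox4i2. A part led by Cldn5, Ly6c1 and Slco1a4 (79 and 70 cells) had 98.2 and 92.8 CPM of Ndufa4l2 and 39.3 and 20.2 CPM of Cox4i2, with Rgs5 at 1760 and 1198 CPM. Both isoforms were thus several times as high in the part with the pericyte genes, which also held Cldn5 at 2859 and 2148 CPM. The remaining part, led by the haemoglobin genes Hbb-bs, Hbb-bt and Hba-a1 (16 and 19 cells), had Hbb-bs at 136400 and 142000 CPM, Ndufa4l2 at 167 and 286 CPM and Cox4i2 at 115 and 30.1 CPM. Its mt- members took 4.61% and 4.85% of UMIs, against 7.01% and 7.30% in the part with the pericyte genes and 8.26% and 8.96% in that led by Cldn5. The mt- to nuclear ratio was 2.77 and 3.50 in the part with the pericyte genes, 2.98 and 3.57 in that with the haemoglobin genes and 3.07 and 4.01 in that led by Cldn5. In fibroblast-like cells Ndufa4l2 was called higher at 94.1 and 71.4 CPM on 9 and 11 UMIs, while Cox4i2 had 0 UMIs in 22 and 33 cells.

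**Figure D5:**
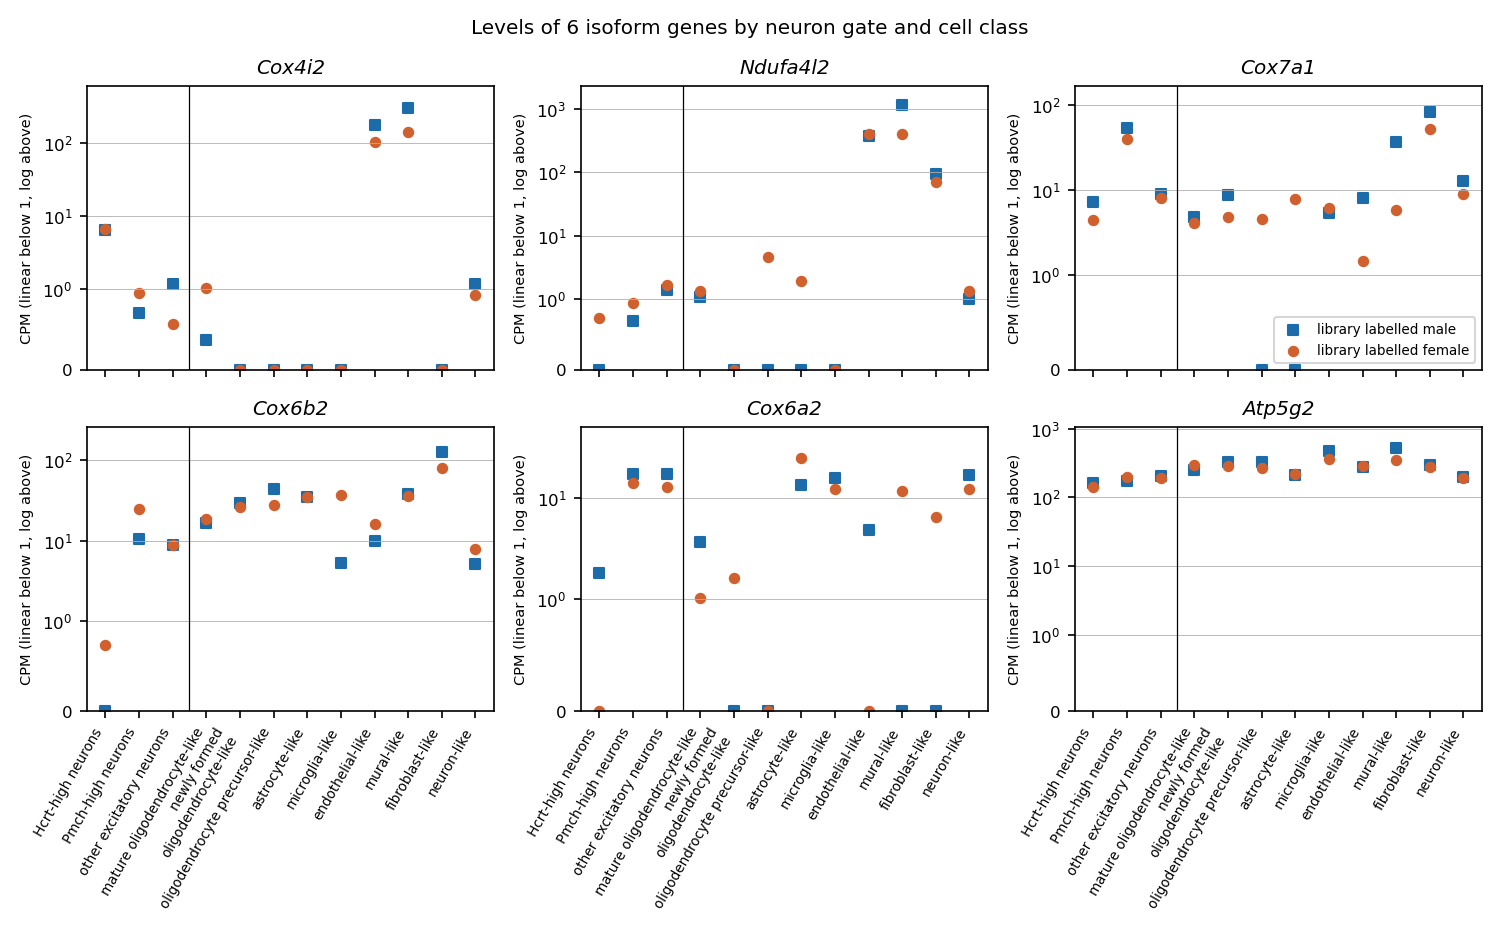
CPM of 6 isoform genes by neuron gate and class, on an axis that is linear below 1 and logarithmic above, with 1 point per library. Ndufa4l2 and Cox4i2 are high in endothelial-like and mural-like cells, Cox7a1 in Pmch-high and fibroblast-like cells, and Cox6b2 and Cox6a2 are at or near 0 in Hcrt-high neurons.

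Cox6b2, the isoform of subunit VIb known from testis, was called higher in each class tested than in neuron-like cells. It had 34.1 and 35.03 CPM in astrocyte-like cells, against 5.18 and 7.89 CPM in neuron-like cells (2.55 ± 0.41, edgeR adjusted p = 8.9e-07), 16.6 and 18.7 CPM in mature oligodendrocyte-like cells (2.08 ± 0.26, edgeR adjusted p = 6.4e-10) and 28.9 and 26.01 CPM in newly formed oligodendrocyte-like cells. Beside Cox6b1 it made 5.68% and 5.84% in astrocyte-like, 3.64% and 4.76% in mature oligodendrocyte-like and 12.9% and 9.60% in fibroblast-like cells, against 0.711% and 1.23% in neuron-like cells. The calls, in all 7 classes tested, rest on few UMIs in some: 12 and 12 in fibroblast-like, 8 and 6 in precursor-like and 1 and 6 in microglia-like cells. In microglia-like cells it had 5.33 and 36.9 CPM, which overlapped with neuron-like cells. Cox7a1 was called higher in fibroblast-like cells at 83.7 and 51.9 CPM, on 8 and 8 UMIs, against 12.7 and 9.07 CPM in neuron-like cells. Cox6a2, a heart and muscle isoform, made 0.506% and 0.154% of its pair with Cox6a1 in mature oligodendrocyte-like cells, against 2.29% and 1.76% in neuron-like cells.

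The membrane ring of ATP synthase is built from subunit c, and Atp5g1, Atp5g2 and Atp5g3 encode the same mature protein with different import sequences. These 3 genes went different ways between cell classes, and so their promoters are shown. Each runs from 250 bases before to 50 after the start in RefSeq (GRCm38.p6), all on the minus strand, with Atp5g1 at chr11:96075582-96075881, Atp5g2 at chr15:102670998-102671297 and Atp5g3 at chr2:73911277-73911576. Capitals mark matches on either strand to GCGCATGCG, the core site of NRF1, a regulator of nuclear respiratory genes, or to ACGTG or GCGTG, the core of the HIF response element.
Atp5g1: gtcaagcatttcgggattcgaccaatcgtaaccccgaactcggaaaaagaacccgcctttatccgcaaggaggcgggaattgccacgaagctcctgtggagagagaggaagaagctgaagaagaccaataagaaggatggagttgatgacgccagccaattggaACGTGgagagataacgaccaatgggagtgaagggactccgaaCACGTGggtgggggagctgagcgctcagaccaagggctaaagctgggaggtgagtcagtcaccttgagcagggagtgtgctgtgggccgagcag
Atp5g2: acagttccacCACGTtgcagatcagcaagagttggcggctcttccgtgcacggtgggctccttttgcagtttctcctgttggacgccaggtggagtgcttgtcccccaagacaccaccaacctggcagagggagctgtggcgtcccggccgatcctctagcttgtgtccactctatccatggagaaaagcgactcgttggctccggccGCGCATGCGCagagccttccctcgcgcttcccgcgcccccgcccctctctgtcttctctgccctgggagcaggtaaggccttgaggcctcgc
Atp5g3: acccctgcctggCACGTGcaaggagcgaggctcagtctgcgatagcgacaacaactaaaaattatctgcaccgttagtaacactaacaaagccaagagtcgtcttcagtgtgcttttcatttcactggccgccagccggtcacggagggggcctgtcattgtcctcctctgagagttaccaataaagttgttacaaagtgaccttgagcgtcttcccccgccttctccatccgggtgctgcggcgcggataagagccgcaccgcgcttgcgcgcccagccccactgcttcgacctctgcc

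The Atp5g2 window held 2 overlapping NRF1 matches and 1 HIF match, and those of Atp5g1 and Atp5g3 held 3 and 2 HIF matches and 0 NRF1 matches. Of 98 nuclear members 78 had a promoter in this table, and GCGCATGCG was in 10 of them (12.8%), against 1.95% of 27025 genes with a promoter of the same length, some genes having more than 1 such window. CCGGAAGT, the site of GABPA, was in 9 (11.5%), against 4.31%, AANATGGCG, the site of YY1, in 11 (14.1%), against 2.76%, and the HIF core in 49 (62.8%), against 46.7%. The 2 NRF1 matches of Atp5g2 lie on opposite strands of 1 run of letters. So do the 2 HIF matches of Atp5g3 and 2 of the 3 of Atp5g1, each in a run CACGTG. N stands for any base, and a match describes letters in these windows alone. The other holders of the NRF1 match were Atp5k, Atp5l, Cox6a1, Ndufa11, Ndufa8, Ndufaf4, Ndufaf5, Uqcr11 and Uqcrc1.

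Atp5g2 had 246 and 290.0 CPM in mature oligodendrocyte-like cells, 464 and 363 CPM in microglia-like, 329 and 283 CPM in newly formed oligodendrocyte-like and 272 and 288 CPM in endothelial-like cells, against 196 and 189 CPM in neuron-like cells. It was called higher in all 4, by 1.13 ± 0.19, edgeR adjusted p = 5.1e-07 in mature oligodendrocyte-like and 1.36 ± 0.22, edgeR adjusted p = 2.3e-06 in microglia-like cells. Atp5g3 was called lower in 5 of 7 classes and Atp5g1 in 6: Atp5g3 had 155 and 151 CPM in mature oligodendrocyte-like cells, against 492 and 414 CPM (-0.91 ± 0.19, edgeR adjusted p = 3.3e-05), and Atp5g1 278 and 234 CPM in endothelial-like cells, against 713 and 674 CPM (-1.11 ± 0.19, edgeR adjusted p = 1.3e-06). Of the Atp5g2 and Atp5g3 UMIs, Atp5g2 made 61.3% and 65.8% in mature oligodendrocyte-like, 67.4% and 59.6% in microglia-like, 52.9% and 63.2% in endothelial-like and 42.5% and 43.4% in astrocyte-like cells, against 28.4% and 31.4% in neuron-like cells. This share lay above the neuron-like one without overlap in each of these classes, and it does not depend on scaling.

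Of the genes that feed the chain, those of pyruvate dehydrogenase and the tricarboxylic acid cycle were compared between inhibitory and excitatory neurons. There 10 of 17 were called higher and 1 lower, beside 10.6% and 13% of all genes. Calls for this list and those below are given for the main fit alone. For the members of this comparison, DESeq2's test and a fit with no replicate block called far fewer, as given above. Idh3a, a subunit of isocitrate dehydrogenase, had 227 and 212 CPM in inhibitory neurons, against 155 and 146 CPM in excitatory neurons (0.49 ± 0.04, edgeR adjusted p = 4.4e-09). In Hcrt-high neurons 2 were called higher and 3 lower of 17, beside 21.5% and 19.9% of genes, and in Pmch-high neurons 2 and 7 of 16, beside 19.4% and 16.8%, with Cs, citrate synthase, higher in both at 0.55 and 0.68. Against neuron-like cells 12 were called lower in mature oligodendrocyte-like, 13 in precursor-like and 15 in endothelial-like cells of 17, with 1 higher in each, beside 35.9%, 20.4% and 30.2% of genes called lower. In astrocyte-like cells 4 were higher and 7 lower, beside 23.5% and 26.2%: Cs had 222 and 198 CPM, against 110.4 and 108 CPM in neuron-like cells (1.11 ± 0.16, edgeR adjusted p = 9.1e-08), while Idh3a was lower at -1.13. Suclg2, the GTP-linked subunit of succinyl-CoA synthetase, had 44.3 and 38.9 CPM in astrocyte-like cells, against 3.31 and 2.70 CPM (3.97 ± 0.47, edgeR adjusted p = 5.4e-10).

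Among 11 electron carriers, exchangers and leak genes, Vdac1, the main channel of the outer membrane, had 79.8 and 71.1 CPM in mature oligodendrocyte-like cells, against 423 and 403 CPM in neuron-like cells (-1.81 ± 0.18, edgeR adjusted p = 2.8e-12), 1 of the list being higher and 8 lower there, beside 32.9% and 35.9% of genes. Ucp2, an uncoupling protein, was higher in endothelial-like cells at 314 and 435 CPM, against 32.6 and 32.5 CPM (3.86 ± 0.16, edgeR adjusted p = 1.6e-26), and in microglia-like cells at 320.0 and 264 CPM. Of the list on mitochondrial DNA upkeep and biogenesis 6 of 17 were called higher and 0 lower in inhibitory neurons, beside 10.6% and 13% of genes, 1 and 7 in Hcrt-high neurons, beside 21.5% and 19.9%, and 0 and 4 in Pmch-high neurons, beside 19.4% and 16.8%. The count of lower ones in Pmch-high neurons was near its background. Ppargc1a, the coactivator PGC-1alpha, had 76.0 and 80.4 CPM in inhibitory neurons, against 47.6 and 45.2 CPM in excitatory neurons (0.71 ± 0.07, edgeR adjusted p = 3.2e-08). It had 31.1 and 25.8 CPM in Hcrt-high and 14.6 and 22.6 CPM in Pmch-high neurons, against 59.4 and 51.7 CPM in other excitatory neurons, and was called lower in both. In astrocyte-like cells it was higher at 136 and 146 CPM, against 61.1 and 62.6 CPM in neuron-like cells (1.38 ± 0.19, edgeR adjusted p = 4.4e-08), and in mature oligodendrocyte-like cells lower at 4.41 and 5.10 CPM (-3.04 ± 0.24, edgeR adjusted p = 9.2e-16).

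Between the libraries there is 1 sample a label and no test. The mt- share was higher in the library labelled female in 8 of 9 classes, by ratios of 0.992 to 1.18, the nuclear share was higher in 1 of 9 (0.816 to 1.06), and the mt- to nuclear ratio was higher in 9 of 9 (1.08 to 1.28). Library, sex label, pool of animals and preparation cannot be told apart here.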

How the data were processed

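The authors deposited, per library, a matrix of raw UMI counts per gene and barcode, not normalized. The submitters' processing notes name Cell Ranger 2.2.0 and the builds GRCm38 and mm10; how cells were called, which annotation was used and whether strand counted is not stated in those notes. The members, gene lists, markers and gates were chosen with earlier results of these data known.

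Cells with at least 500 genes and at most 20% mitochondrial UMIs were kept, and the highest Scrublet scores removed at 0.8% per 1000 barcodes (95 and 115 cells; Scrublet's own calls were 57 and 13). Genes seen in 3 or more cells and 2000 variable genes, without members, gave 30 principal components and 15 neighbours for Leiden clusters at resolution 1 (scanpy 1.11.5). Clusters were named from marker lists.

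Raw counts were summed per library and group (at least 10 cells) and tested 2-sided with edgeR 4.0.16's quasi-likelihood test (R 4.3.3) after filterByExpr and TMM, with Benjamini-Hochberg adjustment over all genes. The library is the block because both groups of a comparison came from the same pool of animals. Neuron gates used 4 sums with 1 residual degree of freedom. Classes used 16 sums in 1 fit with 7, since the mural-like class was left out. The biological coefficient of variation was 2.43%, 5.92%, 3.23% and 11.4% for inhibitory, Hcrt-high, Pmch-high and class fits. The p-values rest on only 2 pools of animals and on a spread that was mostly shared over genes. Its prior degrees of freedom were 22.7, infinite and 27.0 for the inhibitory, Hcrt-high and Pmch-high fits, beside 1 residual. For the class fit they were 40.0, beside 7 residual. A small p-value is thus no measure of a gene's own variation between the pools. With 23151801 and 27437142 UMIs a CPM of 1 is few counts in a small class, and intervals cover counting error alone.

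Named genes were all mt- members, isoform groups with Ndufs4 and Sdha, the 3 nuclear members with most UMIs per complex, and per comparison up to 5 called members at each end with at least 20 CPM in the higher arm and 1 direction in both libraries; not every one is printed. Alternatives were other size factors, no TMM, no low-count filter, DESeq2 1.42.0, no replicate block, mt- genes left out, other limits on mitochondrial share, no doublet removal, cells thinned to 3000 UMIs and resolution 2. Promoters came from RefSeq (GRCm38.p6). The test code was tested on simulated data.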

Additional observations from a re-analysis of the deposited data

How the results depend on the processing

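Of the counts and summed levels recomputed under the alternatives, 84 were near the main value and 23 moved. Without TMM the members called were 77 for Hcrt-high neurons (41 with TMM), 73 for Pmch-high (44), 89 for mature oligodendrocyte-like (56), 52 for astrocyte-like (31), 35 for microglia-like (14) and 70 for endothelial-like cells (39). The share of all genes called in either direction was 46.3%, 43.8%, 76.2%, 52.7%, 41% and 66.9% in this order. DESeq2's test called 3 for inhibitory neurons (54), 21 in Hcrt-high neurons, 17 in Pmch-high neurons and 33 in fibroblast-like cells (13). Over all genes it called 4.38%, 13.8%, 11.6% and 26% in these. With no replicate block, so without the pairing of groups by library, 1, 23 and 8 were called for inhibitory neurons, Pmch-high neurons and fibroblast-like cells, and the other counts stayed within 1.5 times. For the groups named, 7.11%, 31.2% and 28.8% of all genes were called. Thinned to 3000 UMIs, 33 were called for inhibitory, 18 for Hcrt-high and 14 for Pmch-high neurons, 24 for microglia-like and 7 for fibroblast-like cells. The shares of all genes called there were 10.4%, 16.4%, 10.7%, 23% and 27.2%. Precursor-like cells, with 5 and 4 cells left, could not be compared. Leaving Hcrt-high and Pmch-high neurons out of both gates gave 31 for inhibitory neurons, beside 14.4% of genes. At most 10% mitochondrial UMIs gave 5 for fibroblast-like cells, beside 21.4% of genes. With mt- genes left out, the nuclear members called were 12 for astrocyte-like (19), 8 for microglia-like (14) and 21 for fibroblast-like cells (12). Beside them 48.1%, 33.6% and 26.8% of genes were called.

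Without TMM, which moves all genes down in these comparisons, signs turned in Pmch-high neurons for mt-Nd1 (-0.10), mt-Co2 (-0.20), mt-Atp6 (-0.23), mt-Co3 (-0.23), mt-Nd4 (-0.14), mt-Cytb (-0.20), Ndufa13 (-0.18), Ndufa2 (-0.011) and Atp5l (-0.25). In mature oligodendrocyte-like cells they turned for mt-Nd1 (-0.24), mt-Nd5 (-0.19), Cox4i1 (-0.46), Cox6a1 (-0.030), Ndufs4 (-0.43), Cox6c (-0.56), Ndufa2 (-0.56), Uqcr10 (-0.61), Uqcrq (-0.64), Sdhb (-0.64) and Sdhc (-0.52), and in endothelial-like cells for mt-Cytb (-0.28). In astrocyte-like cells mt-Nd3 was -0.0036 at the limit of 10% and Sdha 0.023 with no limit. In microglia-like cells thinned to 3000 UMIs mt-Nd2 was -0.65 and mt-Nd5 -0.83. Cox4i2 was 5.85 in fibroblast-like cells with the clusters remade at the limit of 10%. The cause of the turns other than those without TMM was not tested. Fits on 1 library have no residual degrees of freedom, so counts without either library were not run. Depth limits low-count isoforms and the small classes most.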
